A study of Drosophila melanogaster with 19 samples.

Results

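RNA crosslinked to Armitage (Armi) carrying the substitution R949A was set against RNA crosslinked to wild-type (WT) Armi, transcript by transcript, in ovarian somatic cells (OSC) of Drosophila melanogaster. OSC are a cultured line from ovarian follicle cells. Cells had been transfected with Myc-tagged Armi bearing R949A, with Myc-Armi bearing D862A, or with WT Myc-Armi, and the labels list 2 libraries for each. Bound RNA was recovered after UV crosslinking and RNase T1 digestion and read by FAST-iCLIP, in which reverse transcription and circularization turn protein-bound RNA fragments into a sequencing library. The deposited table has 1 column per condition, so values are single joined values without a replicate error, and no p-value is given. It holds 12013 transcripts with a gene symbol, of 13929 in any table of the series, and 4473 of them were compared, those whose R949A and WT values averaged 5 reads per M reads (RPM) or more.

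PIWI-interacting RNAs (piRNAs) are small RNAs that guide Piwi to transposons. In follicle cells they are cut from long single-stranded precursors, which include transposon-rich clusters and the messenger RNAs of some genes, with traffic jam (tj) the best known. Armi is an RNA helicase that binds these precursors, Yb (the product of fs(1)Yb) gathers them with Armi in perinuclear bodies, and the endonuclease Zucchini (Zuc) cuts them at the surface of mitochondria. The mammalian relative of Armi is MOV10L1. What the residues replaced in R949A and D862A do is not given in the sources used here.

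The labels give an anti-c-Myc antibody for all 6 Myc-Armi libraries, while the extraction protocol they share with the other iCLIP libraries names an antibody against Armi itself. The labels do not say whether endogenous Armi was removed. The armi transcript had 3951 RPM in R949A, 5157 RPM in D862A and 5235 RPM in WT, and the WT value was 37.3 times that in untreated Armi iCLIP, a separately normalized table. Reads from the transfected construct and from the cell's own armi gene cannot be told apart. Of 14 markers of the follicle lineage, 13 passed the 5 RPM limit, with tj at 2691 RPM in R949A, 2618 RPM in D862A and 3082 RPM in WT. The exception was cas, with 0 RPM in R949A, 0.319 RPM in D862A and 0.786 RPM in WT. Because tj is itself a piRNA precursor, its Armi signal is not a measure of lineage alone.

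From the size of the smallest step in each column, the joined libraries held 5.70 M reads in R949A, 6.27 M in D862A and 2.54 M in WT. Listed transcripts took 63.8% of the reads in R949A and 63.3% in D862A, against 33.2% in WT. What the remaining reads were is not stated in the sources used here. One read was worth 0.175 RPM in R949A, 0.159 RPM in D862A and 0.393 RPM in WT, so low values were less finely resolved in WT. RPM is not divided by transcript length, so ranks by RPM are ranks of signal per transcript. The median transcript compared had 239 reads in R949A and 33 reads in WT, and 1086 transcripts had fewer than 10 reads in WT. Ratios below carry a 95% interval for counting error alone, since reads amplified by PCR are not independent molecules. No column of an untagged or mock precipitation was used, and messenger RNA levels in these cells were not measured here. More Armi-bound RNA and more of the transcript itself therefore cannot be told apart.

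Most transcripts had a higher Armi signal in R949A than in WT, and the reads were spread more evenly over them. As deposited, 3884 of 4473 transcripts (86.8%) had more RPM in R949A than in WT, and 589 had less. The median ratio was 1.68 on the log2 scale with 1 RPM added to each value, a 3.19-fold difference. The most abundant transcripts that together held 50% of the listed reads numbered 311 in R949A, 328 in D862A and 162 in WT. The 10 highest transcripts of each column took 8.30% of listed reads in R949A, 8.20% in D862A and 12.0% in WT. At least 1 read was found for 6514 transcripts in R949A, 6583 in D862A and 5770 in WT. Thinned to the number of listed reads in WT, R949A would have shown 6155 transcripts and D862A 6208, still above the 5770 of WT.

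Because of this general shift, each ratio is also given relative to the table median and is called the relative ratio (log2). A relative ratio of 0 is a transcript whose R949A over WT ratio was the median one. The quartiles lay at -1.01 and 1.07. Of all transcripts, 1176 (26.3%) were at least 2-fold higher in R949A relative to the table and 1132 (25.3%) at least 2-fold lower. As deposited the split was 3008 to 215, and with the columns scaled to the same sum over the table it was 1943 to 556. Of the 1132 lower transcripts, 589 also had less RPM as deposited. Where the nearer bound of the counting interval had to pass 2-fold as well, the counts were 637 higher and 787 lower. Of the 1176 higher transcripts, 734 rested on fewer than 10 WT reads.

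**Figure D1:**
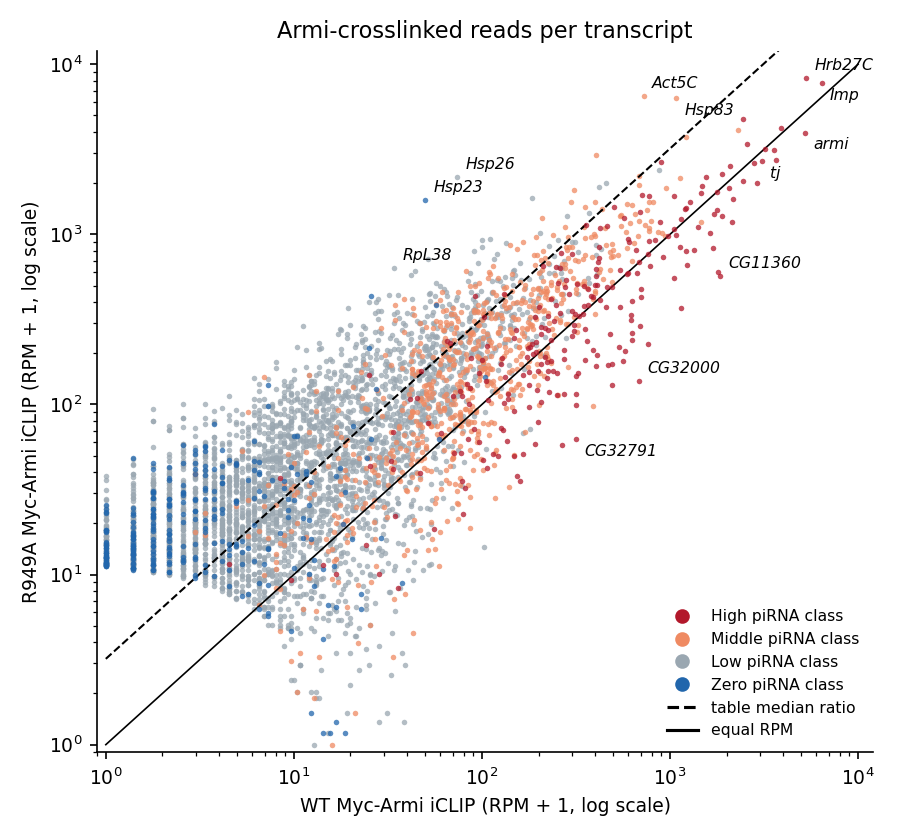
Deposited RPM plus 1 in R949A (vertical, log scale) against WT (horizontal, log scale) for 4473 transcripts, coloured by piRNA class. The solid line marks equal RPM and the dashed line the table median, 3.19-fold higher in R949A. Most High-class transcripts lie near or below the solid line, and Low-class transcripts lie on both sides of the dashed one.

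The authors' table sorts transcripts into 4 classes by their Piwi-bound small RNA in untreated cells. The values bear this out as a sorting on that measure: High members had at least 101 RPM of Piwi-bound RNA, Middle members at least 20.1 RPM, Low members up to 19.6 RPM, and Zero members none. Those libraries share no reads with the Myc-Armi columns.

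As deposited, the summed RPM of the piRNA-rich class was nearly equal between R949A and WT, while that of the other classes was higher in R949A. RPM is a share of all reads of a column, so equal sums are not equal amounts of bound RNA. The 238 High transcripts summed to 153365 RPM in R949A, 148504 RPM in D862A and 150121 RPM in WT. Middle transcripts summed to 213487 RPM in R949A, 207446 RPM in D862A and 101776 RPM in WT. Low transcripts summed to 260423 RPM in R949A, 264830 RPM in D862A and 78206 RPM in WT. Zero transcripts summed to 10889 RPM in R949A, 12234 RPM in D862A and 1880 RPM in WT. R949A over WT was thus 1.02 for the High sum, 2.10 for Middle, 3.33 for Low and 5.79 for Zero, in the reverse order of the amount of piRNA.

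As shares of the listed reads, the High class held 24.03% in R949A (exact binomial interval 23.99 to 24.08%), 23.5% in D862A and 45.2% in WT (45.1 to 45.3%). The Low class held 40.8% in R949A, 41.8% in D862A and 23.6% in WT, and the Zero class 1.71% in R949A, 1.93% in D862A and 0.566% in WT. The Middle share was the closest between columns, at 33.5% in R949A, 32.8% in D862A and 30.7% in WT. Without the 10 highest transcripts of R949A and of WT, the order of columns was kept in the High, Low and Zero classes. The High share was then 18.4% in R949A, 18.0% in D862A and 37.3% in WT. The Middle order changed, with 33.9% in R949A, 33.0% in D862A and 34.2% in WT.

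Transcript by transcript the order was the same for the classes that were nearly complete. All 238 High transcripts passed the 5 RPM limit, with a median relative ratio of -1.69. Of them 195 were at least 2-fold lower relative to the table, against 25.3% of all transcripts, and 0 were at least 2-fold higher. Their median ratio as deposited was -0.02, so the typical High transcript had almost the same RPM in R949A and WT, and 168 of the 238 lay within 2-fold of equality. A further 28 had at least double the RPM in R949A and 42 had at most 50% of their WT value. Of 742 Middle transcripts 727 passed, with a median relative ratio of -0.88 and, as deposited, of 0.80. Among them 27 were 2-fold higher and 325 were 2-fold lower relative to the table.

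Of 5488 Low transcripts 3225 passed, and of 5545 Zero transcripts 283 passed. Many of these passed only through the column in which they were high, so their medians (0.30 for Low and 1.36 for Zero) describe those that passed. With no limit the Zero median was -0.23. Just inside the limit, at means of 5 to 6 RPM, 218 transcripts of all classes had a median log2 ratio of 2.14 as deposited. Just outside it, at 4 to 5 RPM, 258 had 1.94.

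**Figure D2:**
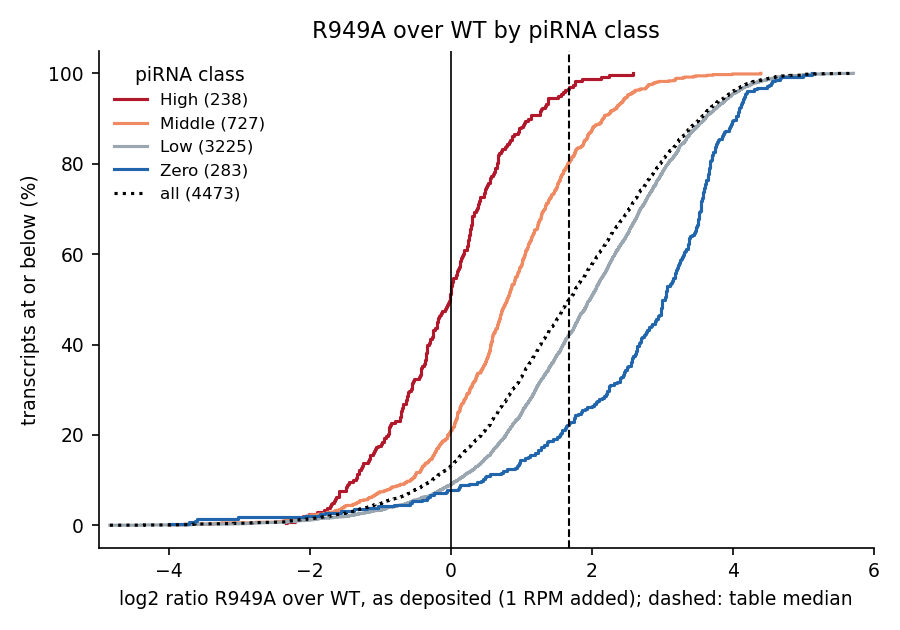
Cumulative share of transcripts (vertical, %) against the log2 ratio of R949A over WT as deposited with 1 RPM added (horizontal), for the High (238), Middle (727), Low (3225) and Zero (283) classes. The solid line marks equal RPM and the dashed line the table median of 1.68. The High curve crosses 50% at -0.02 and lies to the left of the others at the median and both quartiles, while the lowest single values belong to the other classes.

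At an average of 100 RPM or more, the genes with the smallest relative ratios were nearly all of the High class. Over all transcripts compared, the smallest values lay in other classes, down to -6.52 in Low against -4.01 in High. Of the 10 smallest relative ratios at an average of 100 RPM or more, 9 were High and 1, CG7564, was Middle. They were taken from 1022 transcripts at that level, among which the share of High members was not counted. The 9 of 10 therefore has no base share to be set against. The High medians were 276 RPM in R949A and 304 RPM in WT, against 41.9 RPM and 13.0 RPM over all transcripts compared. CG32791, named DIP-alpha in the reference and coding for an immunoglobulin-domain surface protein, had 61.4 RPM in R949A, 56.7 RPM in D862A and 314 RPM in WT. WT was 5.11-fold above R949A (4.50 to 5.81), and the relative ratio was -4.01. CG32000, now called anne, had 136 RPM in R949A, 154 RPM in D862A and 687 RPM in WT, 5.03-fold more in WT (4.62 to 5.48). CG11360 had the most RPM of the 10, with 567 RPM in R949A, 506 RPM in D862A and 1839 RPM in WT. In each case both mutants were low and WT was high.

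Others of these 10 have known products. Nipped-A, the fly relative of the transcription cofactor TRRAP, had 227 RPM in R949A, 278 RPM in D862A and 767 RPM in WT. The phospholipase C gene sl had 130 RPM in R949A, 126 RPM in D862A and 489 RPM in WT. The cadherin gene kug, which acts in the rotation of egg chambers, had 98.6 RPM in R949A, 103 RPM in D862A and 314 RPM in WT. Invadolysin, which encodes a metalloprotease, had 57.4 RPM in R949A, 38.1 RPM in D862A and 191 RPM in WT. CG41099, CG7564 and CG10171 complete the 10, with WT over R949A ratios of 4.68, 4.01 and 3.25. All 10 had less RPM in R949A also as deposited, and no counting interval reached equality. They were picked as the smallest of these same ratios, so this describes them and is not separate support.

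Piwi-rich genes of high RPM, such as tj, brat and dm, lay closer to equality. For tj, a Maf-family transcription factor of the somatic gonad, R949A over WT was 0.873 (0.849 to 0.897), and its relative ratio was -1.87. The translational repressor brat had 2722 RPM in R949A, 2362 RPM in D862A and 3647 RPM in WT, a ratio of 0.746. The fly Myc gene dm had 3134 RPM in R949A, 2983 RPM in D862A and 3572 RPM in WT, a ratio of 0.877. All 3 are High members, and each was lower in R949A as deposited by less than 2-fold.

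The next High members had a larger difference. Patr-1, an activator of messenger RNA decapping, had 367 RPM in R949A, 293 RPM in D862A and 1140 RPM in WT. Sec16, which organizes sites of export from the endoplasmic reticulum, had 287 RPM in R949A, 263 RPM in D862A and 696 RPM in WT. The tumour suppressor and cell polarity gene l(2)gl had 803 RPM in R949A, 649 RPM in D862A and 1333 RPM in WT. The cyclin-dependent kinase gene Eip63E had 661 RPM in R949A, 544 RPM in D862A and 1235 RPM in WT. Their relative ratios lay between -3.31 and -2.41.

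Some High members went the other way as deposited. Hrb27C, an hnRNP protein gene and the top transcript in R949A, had 8275 RPM in R949A, 7228 RPM in D862A and 5268 RPM in WT. Imp, which encodes an RNA-binding protein of messenger RNA transport, had 7741 RPM in R949A, 7082 RPM in D862A and 6399 RPM in WT and was the top transcript in WT. Both had more RPM in R949A as deposited, and both lay below the table median, at -1.02 and -1.40. Only 7 High members lay above the table median, and the largest was CG4452 at 0.91. The homeobox gene mirr, which patterns the follicle epithelium, was another, with 434 RPM in R949A, 494 RPM in D862A and 91.2 RPM in WT.

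At an average of 100 RPM or more, the 10 genes with the largest relative ratios held no High member, and 3 of the 10 were heat shock genes. They came from the same 1022 transcripts, among which heat shock genes were not counted. The heat shock and chaperone list held 26 of the 4473 transcripts compared, a wider set than the 1022, so the 3 of 10 has no base share either. Hsp23, a small heat shock protein gene of the Zero class, had 1585 RPM in R949A, 2181.7 RPM in D862A and 48.7 RPM in WT. R949A was 32.5-fold above WT (27.2 to 39.1), a relative ratio of 3.32. Hsp26, another small heat shock protein gene, had 2162 RPM in R949A, 2501 RPM in D862A and 72.7 RPM in WT, a 29.7-fold ratio (25.7 to 34.6). Hsp68, an inducible chaperone of the Hsp70 family, had 435 RPM in R949A, 497 RPM in D862A and 24.8 RPM in WT. Both mutants were far above WT in all 3.

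The other 7 of the 10 largest relative ratios at an average of 100 RPM or more were Low transcripts. Ef1beta, a subunit of the translation elongation factor complex, had 290.0 RPM in R949A, 270 RPM in D862A and 10.2 RPM in WT. CG32230, named ND-MLRQ in the reference and part of respiratory complex I, had 216 RPM in R949A, 228 RPM in D862A and 9.43 RPM in WT. ImpL3, the lactate dehydrogenase gene, had 368 RPM in R949A, 423 RPM in D862A and 18.5 RPM in WT. For these genes R949A over WT was 19.9-fold (ImpL3) to 28.4-fold (Ef1beta).

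Of the ribosomal protein genes, RpL38 had 629 RPM in R949A, 821 RPM in D862A and 33.0 RPM in WT. RpL21 had 399 RPM in R949A, 553 RPM in D862A and 23.97 RPM in WT. The gene viaf, which encodes a phosducin-like protein, had 230.0 RPM in R949A, 229 RPM in D862A and 12.6 RPM in WT. In all 10 of the largest, the counting interval lay above the table median, and they rested on 24 to 185 WT reads. They were picked by these same ratios, so the intervals are no separate support.

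Abundant housekeeping transcripts had smaller ratios and larger differences in RPM. The actin gene Act5C had 6481 RPM in R949A, 5884 RPM in D862A and 723 RPM in WT, 8.97-fold (8.56 to 9.40). Hsp83, the Hsp90 chaperone, had 6288 RPM in R949A, 7095 RPM in D862A and 1078 RPM in WT, 5.83-fold (5.61 to 6.07). Hsc70-4, the constitutive Hsp70 chaperone, had 2926 RPM in R949A, 2733 RPM in D862A and 402 RPM in WT. Act5C and Hsp83 were among the 10 most abundant transcripts of R949A and not among those of WT. The polyA-binding protein gene pAbp, with 4096 RPM in R949A, 3788 RPM in D862A and 2297 RPM in WT, had more RPM in R949A yet lay below the table median at -0.84.

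**Figure D3:**
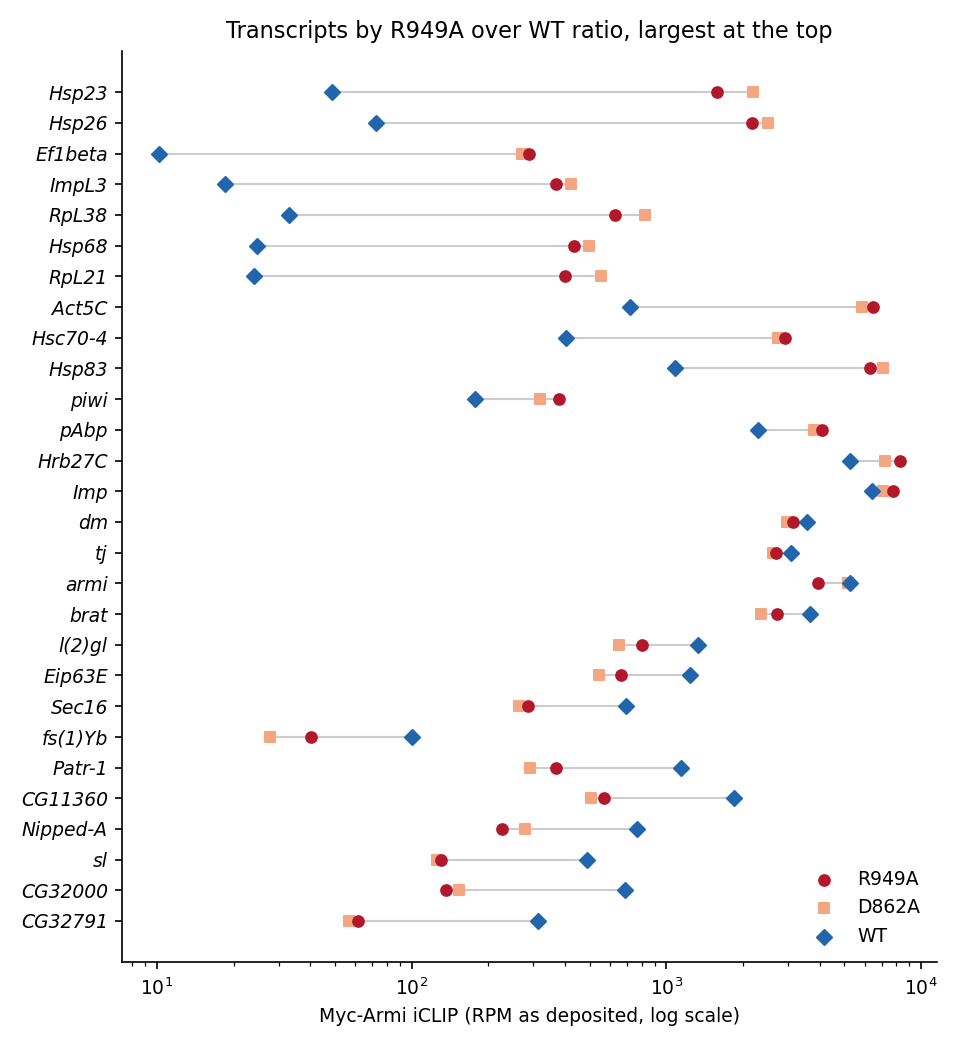
Deposited RPM (horizontal, log scale) in R949A, D862A and WT for 28 transcripts, ordered by the R949A over WT ratio with the largest at the top. R949A and D862A points lie close together in each line, to the right of WT for Hsp23 and Hsp26 and to the left for CG32000 and CG32791.

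Gene lists drawn up by function are described by their counts and medians beside the table, where 26.3% of transcripts were 2-fold higher and 25.3% 2-fold lower. As deposited, the median of each of the 25 lists was above 0, from 0.46 for germline markers to 3.33 for the proteasome, so a list below the table median still had more RPM in R949A in most members. Protein folding and protein turnover genes stood mostly above the table median. Of 36 heat shock and chaperone transcripts matched, 26 passed the 5 RPM limit. Of these, 25 lay above the median and 21 were 2-fold higher, with a list median of 1.48. The exception was the mitochondrial chaperone gene Hsc70-5, with 349 RPM in R949A, 355 RPM in D862A and 173 RPM in WT. Hsp27 had the largest ratio of the list but rested on 2 WT reads, with 78.9 RPM in R949A, 104 RPM in D862A and 0.786 RPM in WT, a ratio of 100.5 with an interval of 27.6 to 832. The list summed to 22278 RPM in R949A, 24413 RPM in D862A and 2900 RPM in WT. Hsp27, Hsp67Ba and the Hsp70 copies that passed had under 5 RPM in WT and passed through the R949A column alone. Copies of Hsp70 are near identical, and how reads with several matches were counted is not stated.

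Of 31 proteasome transcripts 21 passed, 20 lay above the table median and 15 were 2-fold higher, with a list median of 1.65. Their median level was 83.0 RPM in R949A and 5.50 RPM in WT, and part of these also passed through R949A alone. Prosalpha5, a subunit of the proteolytic core, had 100 RPM in R949A, 90.7 RPM in D862A and 1.57 RPM in WT. One read in WT is 0.393 RPM, so its ratio rests on few WT reads. Rpn12, of the regulatory particle, had 141 RPM in R949A, 184 RPM in D862A and 6.29 RPM in WT. Rpt3, an ATPase subunit, was the exception, with 90.9 RPM in R949A, 96.3 RPM in D862A and 39.3 RPM in WT and a relative ratio of -0.49.

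Genes of the translation machinery were also largely above the median. Of 89 cytosolic ribosomal protein transcripts 82 passed, 77 lay above it, 52 were 2-fold higher and 0 were 2-fold lower, with a list median of 1.26. Several of the 52, such as RpL29 and RpL34a, had under 5 RPM in WT and passed through the R949A column alone. All 82 had more RPM in R949A as deposited. The list summed to 19906 RPM in R949A, 23995 RPM in D862A and 3082 RPM in WT. The member with the most RPM, RpL41, had 1327 RPM in R949A, 1232 RPM in D862A and 372 RPM in WT. RpL5 had 183 RPM in R949A, 194 RPM in D862A and 69.6 RPM in WT, a relative ratio of -0.29.

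Of 72 mitochondrial ribosomal protein transcripts 48 passed, and 43 of these 48 had under 5 RPM in WT, so most passed through the R949A column alone. Their median level was 16.1 RPM in R949A and 0.982 RPM in WT, and 40 of them had fewer than 10 WT reads. Their median relative ratio of 1.61 therefore describes only those that passed, and it was 2.41 with 0.1 RPM added and 0.48 with 5 RPM added. An example is mRpS34, which had 40.9 RPM in R949A, 48.3 RPM in D862A and 0.786 RPM in WT, or 2 WT reads. Of 86 oxidative phosphorylation transcripts 53 passed, 49 lay above and 29 were 2-fold higher, with a median of 1.09. Their median level was 42.8 RPM in R949A and 4.72 RPM in WT, so part of these also passed through R949A alone. Of 51 translation factor transcripts 35 passed, 22 lay above, 13 were 2-fold higher and 4 were 2-fold lower. Several of the 13, such as eIF2B-alpha, Trip1 and Tango7, had under 5 RPM in WT and passed through the R949A column alone. The span of that list ran from Ef1beta to eIF4G2, a High transcript with 554 RPM in R949A, 516 RPM in D862A and 1046 RPM in WT.

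Of 29 cytoskeleton transcripts 28 passed and 20 lay above the median, with 9 that were 2-fold higher and 4 that were 2-fold lower. Of the 9, Actn, Tm1 and jar had under 5 RPM in WT and passed through the R949A column alone. Act5C led it in level, followed by the profilin gene chic, with 1999 RPM in R949A, 1533 RPM in D862A and 455 RPM in WT. The giant muscle protein gene sls had the smallest ratio, with 39.5 RPM in R949A, 53.9 RPM in D862A and 52.7 RPM in WT.

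Several lists of regulatory genes had medians below that of the table, a position that most of them did not keep once locus length was taken into account (below 0 for 12 of the 25 lists, of which 7 were above 0 after centring on length bins). Of 20 somatic transcription factor transcripts 19 passed, and 2 of them lay above the table median, with 5 that were 2-fold lower and a list median of -0.68. Members include tj, the zinc-finger genes chinmo and crol, and the highest ratio of the list, bab2. The BTB-domain gene chinmo had 4780 RPM in R949A, 4523 RPM in D862A and 2451 RPM in WT. The gene crol had 2054 RPM in R949A, 2067 RPM in D862A and 2451 RPM in WT. The gene bab2 had 366 RPM in R949A, 313 RPM in D862A and 42.0 RPM in WT. As deposited, 16 of the 19 had more RPM in R949A, and the list median was 1.00.

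All 12 epithelial polarity transcripts passed, 3 lay above the median and 7 were 2-fold lower. Their list median was -1.09, but 0.59 as deposited, with 11 of 12 higher in R949A in RPM. The scaffold gene dlg1 had 1195 RPM in R949A, 1040 RPM in D862A and 794 RPM in WT. Of 21 messenger RNA repression and decay transcripts 19 passed, 8 lay above, 1 was 2-fold higher and 8 were 2-fold lower. Besides brat and Patr-1, the zinc-finger decay factor gene Tis11 had 1609 RPM in R949A, 1263 RPM in D862A and 2165 RPM in WT. The Argonaute gene AGO1 had 1930.0 RPM in R949A, 1908 RPM in D862A and 1484 RPM in WT. The decapping scaffold gene Ge-1 had the highest ratio of the list, with 124 RPM in R949A, 88.1 RPM in D862A and 14.9 RPM in WT.

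Of 22 hnRNP and RNA-binding protein transcripts 20 passed, 8 lay above and 7 were 2-fold lower, although all 20 had more RPM in R949A as deposited. The splicing regulator gene sqd had 4196 RPM in R949A, 3557 RPM in D862A and 3885 RPM in WT. The signalling list had 17 of 20 transcripts measured, 5 above the median, with the Notch receptor gene N at 444 RPM in R949A, 339 RPM in D862A and 261 RPM in WT. The ligand gene hh was its highest, with 86.0 RPM in R949A, 62.0 RPM in D862A and 5.11 RPM in WT. Hippo pathway transcripts lay around the table median, with 6 of 13 above it and a list median of -0.02. The cell adhesion list had 6 of 18 above and 2 that were 2-fold lower, led by the integrin gene mys with 1304 RPM in R949A, 1027 RPM in D862A and 546 RPM in WT.

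**Figure D4:**
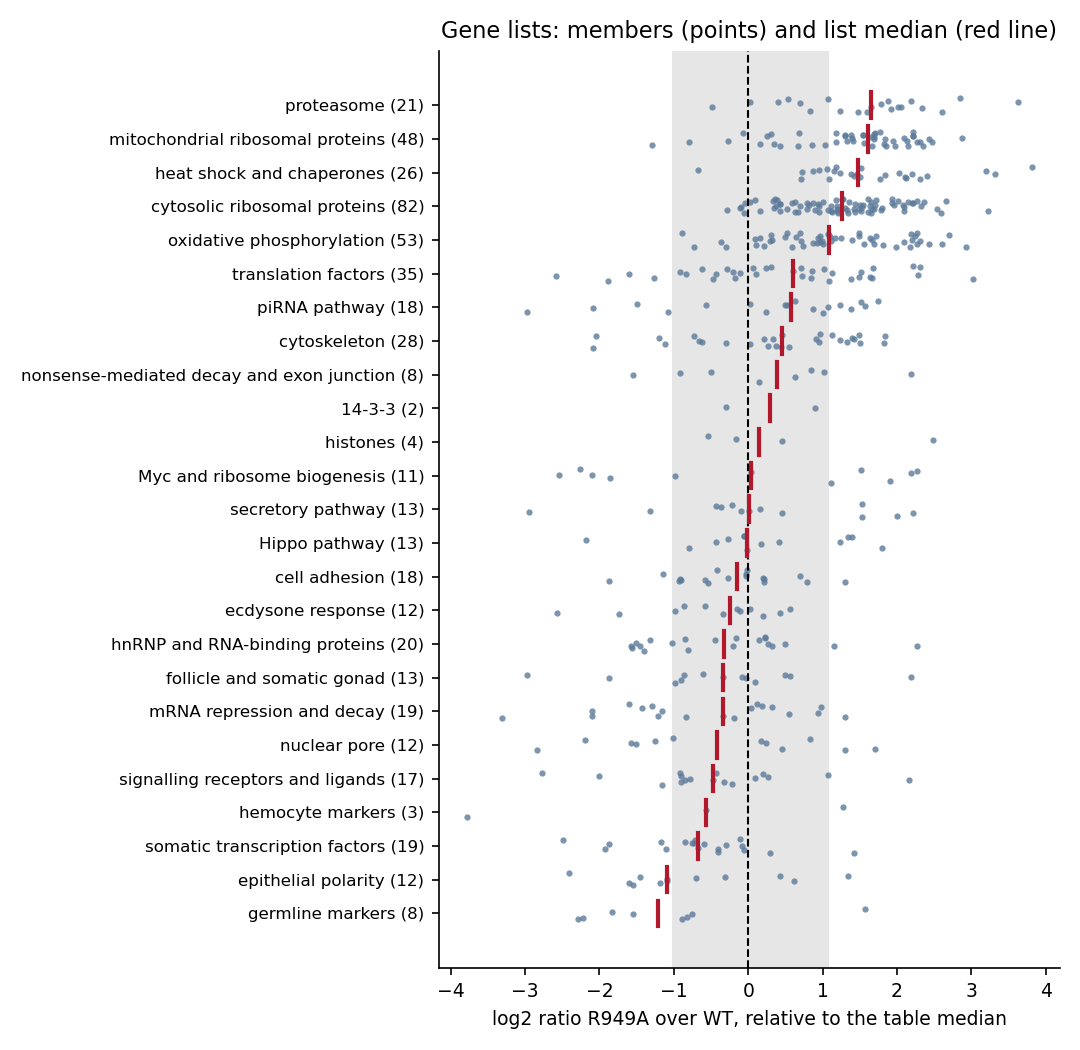
Relative log2 ratio of R949A over WT (horizontal) for the members of 25 gene lists that passed 5 RPM (points) and each list's median (red line), ordered by median, with the number measured in brackets. The dashed line is the table median and the grey band its quartiles, -1.01 to 1.07. Proteasome, mitochondrial ribosomal protein and chaperone lists are at the top, and polarity and germline lists at the bottom.

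Genes of the piRNA pathway were spread over the range. Of 21 matched, 18 passed, 13 lay above the table median, 7 were 2-fold higher and 4 were 2-fold lower. Several of those above the median, zuc among them, had under 5 RPM in WT and passed through the R949A column alone. The 4 lower include armi, whose reads from the construct and from the cell's own gene cannot be told apart. The gene piwi, which lies in the Middle class, had 380.0 RPM in R949A, 320 RPM in D862A and 176 RPM in WT, a relative ratio of -0.57. The gene fs(1)Yb had 40.2 RPM in R949A, 27.7 RPM in D862A and 100 RPM in WT, 2.49-fold more in WT (2.08 to 2.99) and the smallest relative ratio of the list. The gene zuc had 22.3 RPM in R949A, 24.7 RPM in D862A and 1.18 RPM in WT, which is 3 WT reads, with a ratio of 18.9 (6.32 to 92.9). The co-chaperone gene shu had 71.6 RPM in R949A, 81.0 RPM in D862A and 6.68 RPM in WT. Hop, a co-chaperone of the Hsp90 machinery, had 516 RPM in R949A, 499 RPM in D862A and 55.8 RPM in WT.

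Marker lists of other cell types were low. Of 15 germline marker transcripts 8 passed, and their sum over the list was 607 RPM in R949A, 546 RPM in D862A and 633 RPM in WT. The highest was the Tudor-domain gene tud, with 236 RPM in R949A, 229 RPM in D862A and 362 RPM in WT. A list median of -1.22 for these 8 turned to 0.46 as deposited. Of 11 hemocyte marker transcripts 3 passed, srp, ush and crq, and the list summed to 155 RPM in R949A, 119 RPM in D862A and 70.3 RPM in WT. The follicle and somatic gonad list had 13 of 14 measured and 4 above the median, and it summed to 9717 RPM in R949A, 8956 RPM in D862A and 5940 RPM in WT. Whether a change in cell make-up had a part in the results was not tested.

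The relative ratio varied with other properties of the transcripts, which are not independent of each other or of class. Short loci had higher ratios: in 5 bins of equal size by locus length, from the shortest to the longest, the median relative ratios were 1.31, 0.47, -0.22, -0.57 and -0.61. Spearman's rho with locus length was -0.44 over the 4473 transcripts, given as a description because all points share the same columns. Within the High class there was no such slope, with a rho of 0.02 over 238 transcripts and medians of -1.68, -1.95 and -1.67 in the 3 bins of longer loci. Low transcripts had a rho of -0.40.

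Centring each transcript on the median of its length bin changed the lists unequally. The ribosomal protein median was then 0.13, with 46 of 82 above 0, and the mitochondrial one 0.37. The proteasome median was 0.71. The heat shock and chaperone median was 1.58, with 25 of 26 above 0 (1.48 before it). Lists below the table median moved up, and 7 of 12 turned sign. The median was then 0.23 for messenger RNA repression and decay, 0.14 for signalling, 0.44 for cell adhesion, 0.28 for follicle and somatic gonad, 0.18 for ecdysone response, 0.34 for the Hippo pathway and 0.043 for hemocyte markers. The somatic transcription factor median was -0.099 and the hnRNP median -0.032, while those for polarity (-0.48), the nuclear pore (-0.46) and germline markers (-1.09) stayed lower. The High class had a median of -1.26 and the Middle class -0.45. This centring was chosen after the data were seen.

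Transcripts with more endogenous Armi signal in untreated cells had lower relative ratios, with a rho of -0.46. Within the highest of 5 bins of that signal, the medians were -1.71 for 226 High, -0.97 for 458 Middle and -0.26 for 210 Low transcripts. Centring each transcript on its bin of that signal, also chosen after the data were seen, left a median of -0.69 in the High class (-1.69 before it) and -0.071 in the Middle class (-0.88 before it). Against the Piwi-bound small RNA itself the rho was -0.50. Within the High class alone it was -0.40.

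The knockdown (KD) of Yb by RNAi in cells without Myc-Armi was read with separate libraries by Armi iCLIP, set against a control KD of EGFP. Over the 3766 transcripts also measured there, the rho between the R949A over WT ratio and the Yb KD over control KD ratio was 0.42, and within the High class it was 0.63 over 238 transcripts. In the Low class it was 0.25. Of 4039 transcripts in the Yb comparison, 384 (9.51%) were 2-fold higher and 800 (19.8%) were 2-fold lower relative to their own table median. A total of 462 transcripts were 2-fold lower in both comparisons, 44.3% of the 1043 lower in R949A and 61.2% of the 755 lower in Yb KD among the 3766. Of the 462, 159 were High. Of the 238 High transcripts, 195 were 2-fold lower in R949A and 174 in Yb KD. Both were 2-fold higher for 103 transcripts, of 786 higher in R949A and 357 higher in Yb KD among the 3766. Most transcripts that were higher in 1 comparison were thus not 2-fold higher in the other. In opposite directions, 87 were 2-fold different, 34 of them higher in R949A and lower in Yb KD, and 53 the reverse.

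Examples show how the 2 comparisons ran for single genes. CG11360 had a relative log2 ratio of -3.37 in R949A over WT and -4.65 in Yb KD over control KD, and tj had -1.87 and -3.53. The cadherin gene kug had -3.33 in R949A and -0.60 in Yb KD, and Imp -1.40 and -0.11. The Hippo pathway gene ex had 0.17 in R949A and 4.72 in Yb KD, with levels of 201 RPM in R949A, 174 RPM in D862A and 55.4 RPM in WT. Against the change of Armi-bound 5′ ends after Zuc KD, the rho was 0.34 over 3273 transcripts and 0.58 within the High class.

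**Figure D5:**
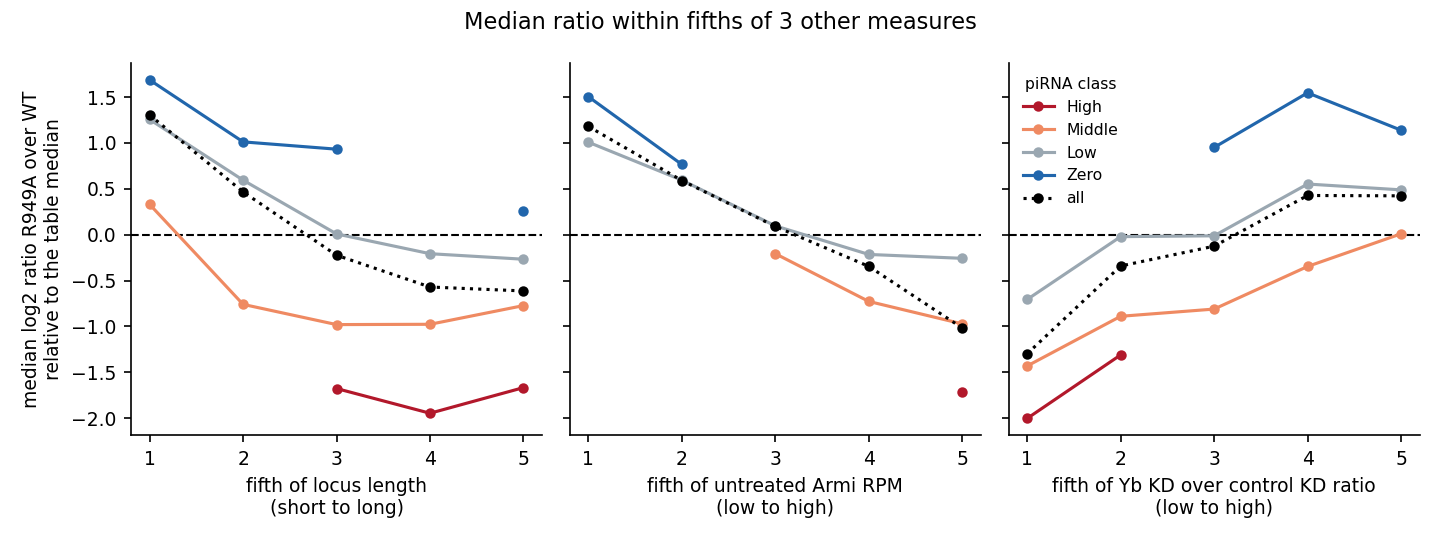
Median relative log2 ratio of R949A over WT (vertical) within 5 bins of equal size by locus length, by untreated Armi RPM and by the Yb KD over control KD ratio (horizontal, low to high), by piRNA class, with bins of under 20 transcripts left out. The High points lie below the other classes wherever the class has a bin of that size, which is 3 bins of length, 1 of untreated Armi and 2 of Yb KD. The line of all transcripts falls with length and with Armi signal and is higher in the last Yb KD bin (0.42) than in the first (-1.30).

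R949A and D862A were close to each other over the whole table. Both were compared with the same WT column, so only their direct ratio is a separate measurement. Of 4963 transcripts that averaged 5 RPM or more over both mutants, 101 (2.04%) were 2-fold higher in R949A and 173 (3.49%) 2-fold lower, relative to the median ratio of 0.98. The quartiles of the relative ratio lay at -0.27 and 0.23.

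The largest differences between the mutants at an average of 100 RPM or more included 4 ribosomal protein genes that were lower in R949A. How many transcripts at that level were of ribosomal protein genes was not counted, so the 4 have no base share to be set against. RpS15 had 75.6 RPM in R949A and 174 RPM in D862A. RpS14a had 98.2 RPM in R949A and 181 RPM in D862A, RpL14 had 179 RPM in R949A and 319 RPM in D862A, and RpS25 had 109 RPM in R949A and 176 RPM in D862A. The other gene, the capsid-like Arc1, had 244 RPM in R949A and 420 RPM in D862A. Among all 82 ribosomal protein transcripts, 69 lay below the median R949A over D862A ratio, with a list median of -0.28. RpS14a has a near-identical copy, and its reads could be split between them. On the other side were mol with 128 RPM in R949A and 82.1 RPM in D862A, dos with 241 RPM in R949A and 159 RPM in D862A, vlc, CG32758 and CG12065.

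Chromosome 4, a small and largely heterochromatic chromosome, had 46 transcripts measured. Their median relative ratio was -1.16, with 7 above the table median and 26 that were 2-fold lower, against 25.3% of all transcripts. Of the 46, 7 were High, 20 Middle and 18 Low. Within each of these classes the chromosome 4 median was lower than that of the class, at -2.71 for High, -1.53 for Middle and -0.39 for Low. After centring on the length bins the median was -0.92, and after centring on the bins of untreated Armi signal -0.51.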

How the data were processed

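The authors deposited RPM for each FlyBase transcript, with 1 joined column each for R949A, D862A and WT; how the 2 libraries were joined is not stated. Per the submitters' processing notes, cutadapt, STAR and the dm6 build were used; the counting step, reads with several matches, strand and the handling of PCR duplicates are not given in the sources used here. Locus coordinates in the table follow another assembly than dm6, so no positions are given, and no sequences are shown.

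Every deposited RPM value was a whole multiple of 1 read (tolerance 0.1 of a read), so whole reads and totals were recovered. After 107 repeated lines were dropped, 12013 transcripts were left, whose symbols were current for 10221, synonyms for 1696 and unmatched for 96. Log2 ratios used 1 RPM added. With 1 column a group no model was fitted: planned tests gave way to ratios with exact conditional binomial 95% intervals. Names followed a rule: the 10 largest and 10 smallest ratios at 100 RPM or more, pathway genes, high and extreme members of each class and list, the 10 highest of R949A and WT, and the 5 largest and 5 smallest R949A over D862A ratios. Genes and lists were chosen with earlier results of these data known. Alternatives were other pseudocounts, limits, scalings (edgeR 4.0.16 TMM in R 4.3.3) and thresholds. Steps were tested on simulated data. Computation used Python 3.11.15 (scipy 1.17.1, pandas 2.3.3, numpy 2.4.6) and figures matplotlib 3.10.9. One transcript that the naming rule selects is not reported here.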

Additional observations from a re-analysis of the deposited data

How the results depend on the processing

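No paired analysis was possible because each condition has 1 joined column, and for the same reason no library could be left out. Values below are table median log2 ratios, counts 2-fold higher and 2-fold lower, and relative class medians in the order High, Middle, Low and Zero; the cause of a difference was not tested. With 0.1 RPM added, the table median was 1.77 and the Zero median 1.89. With 5 RPM added, the table median was 1.37, the count higher 658, and the classes -1.39, -0.62, 0.16 and 0.36. With no limit on RPM, 6805 transcripts gave a table median of 1.39, counts of 1786 and 1702, a High median of -1.41, a Middle median of -0.59 and a Zero median of -0.23, which turned sign. A 20 RPM limit gave 1.45, counts of 678 and 579, and classes at -1.47, -0.61, 0.45 and 1.70. As deposited, counts were 3008 and 215 (93.3% of calls higher, 51.0% when centred) and classes -0.018, 0.80, 1.97 and 3.04; all 12 lists below 0 turned positive, and so did 17 of the 47 named transcripts below 0. Among those that had been 2-fold lower were the polarity (0.59) and germline marker (0.46) lists, AGO1 (0.38), Arc1 (0.51), Hrb27C (0.65), Imp (0.27), dlg1 (0.59) and sqd (0.11). Scaled to equal table sums, counts were 1943 and 556 (77.8% higher) and classes -0.96, -0.14, 1.03 and 2.10. TMM centring gave 1319 and 992, with High, Middle and Low at -1.57, -0.75 and 0.42. An added limit on untreated Armi of 5 RPM gave 1.24, counts of 679 and 625, High -1.26 and Middle -0.46. A 4-fold threshold gave 345 and 421, and the counting bound 637 higher. Centring on 5 bins of locus length gave classes at -1.26, -0.45, 0.18 and 0.46, and on 5 bins of untreated Armi -0.69, -0.071, 0.056 and 0.33; these 2 settings and the limit on untreated Armi were chosen after seeing the data. The High median was negative in all of these, and below the Middle, Low and Zero medians wherever all 4 are given. Of the 1176 higher transcripts, 734 had fewer than 10 WT reads: 577 Low, 155 Zero, 2 Middle and 0 High.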

Other observations

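A few transcripts were listed almost only in WT; they were chosen after their values were seen. Of the 4473 transcripts, 16 had at least 10 RPM in WT and under 1 RPM in R949A, and 8 of these 16 were under 1 RPM in D862A too. CG1231, CG14451, alpha-Est4 and CG12825 were under 1 RPM in R949A, in D862A, in untreated Armi iCLIP and in control KD Armi iCLIP, yet had 13.4 to 17.7 RPM in WT, which is 34 to 45 reads. The largest such difference was that of CG15570, with 0.351 RPM in R949A, 1.59 RPM in D862A and 37.7 RPM in WT, or 2 reads in R949A and 96 reads in WT. In deposited RPM the opposite pattern was more frequent. At least 10 RPM in R949A and under 1 RPM in WT, where 1 read is 0.393 RPM, were found for 366 transcripts. R949A was 3.19-fold higher at the median and held 5.70 M reads against 2.54 M in WT, so the 2 counts cannot be compared directly. Of the 366, 288 also had at least 10 RPM in D862A, and 163 were under 1 RPM in untreated Armi iCLIP. The median D862A value over the 4473 transcripts was 42.7 RPM.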
